A study of Homo sapiens with 9 samples.

Results

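The MS2 control trap is the arm of a miRNA affinity purification (miTRAP) that shows which miRNAs are retained when no 3'UTR is offered to them. Its 3 libraries were compared with the 3 input libraries, 6 of the 9 small RNA libraries of the series. Members were chosen by the sample titles alone, as the groups input and MS2 control, and no measured value entered the choice. In both groups the lysate came from untreated wild-type ES-2, an established line of ovarian cancer cells. For the trap, an RNA with MS2 loops and no 3'UTR was held on amylose resin through a fusion of maltose-binding protein with the MS2 coat protein, and RNA retained from the lysate was eluted. The resin was therefore not without RNA, and loops, fusion protein and resin cannot be told apart as the source of retention. In the remaining 3 libraries the bait carried the PD-L1 3'UTR, and the study stated a larger amount for that bait than for the MS2 control.

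A miRNA hairpin is cut into a duplex whose arms are named 5p and 3p. As a rule one arm, the guide, stays in an Argonaute protein while the other, the passenger, is released and degraded. The guide finds its target mRNAs through its seed, bases 2 to 8 from the 5′ end, so that miRNAs with a shared seed form a family. Passenger arms are usually rare in cells, which makes the ratio of the arms a compact description of a small RNA pool.

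The input libraries held between 3794799 and 5983577 miRNA counts and the MS2 control libraries between 1156261 and 2236535. Of 2652 miRNA names, 408 passed the filter on low counts and were tested. In the input libraries 2 to 3 names held 50% of the counts, against 4 to 5 in the MS2 control libraries, and 90% of the counts were held by 26 to 27 and by 31 to 32 names. Levels are given as CPM, counts scaled to a common library size, after TMM scaling, a correction for libraries dominated by few species, and log2 fold changes are on the same scale. Scaling by library totals raised the median log2 fold change of all tested miRNAs by 0.63, so each direction below is relative to this choice. The study states biological triplicates for its experiments in general, while the labels do not say what separates these libraries, so p values measure the spread between them, whatever its source.

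The results turn on pairs of arms that the trap held unequally and on families that rose or fell in it. Mature sequences (RefSeq, GRCh38.p14) of leading examples are shown with the seed in capitals. Sequences were found for 371 of the 408 tested miRNAs. The first 12 lines pair the arms of hairpins whose balance shifted, the next 4 are let-7 guides that share a seed and moved differently, and the last 5 are among the miRNAs with the largest falls or rises.
miR-342-5p: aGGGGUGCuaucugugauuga
miR-342-3p: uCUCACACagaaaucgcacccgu
miR-92b-5p: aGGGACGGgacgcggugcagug
miR-92b-3p: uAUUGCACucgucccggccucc
miR-125b-5p: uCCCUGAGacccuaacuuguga
miR-125b-1-3p: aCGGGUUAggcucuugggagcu
miR-340-5p: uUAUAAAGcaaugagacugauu
miR-340-3p: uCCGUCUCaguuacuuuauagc
miR-15b-5p: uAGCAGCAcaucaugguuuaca
miR-15b-3p: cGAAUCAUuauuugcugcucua
miR-106b-5p: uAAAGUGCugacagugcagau
miR-106b-3p: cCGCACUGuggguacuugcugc
let-7b-5p: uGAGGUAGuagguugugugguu
let-7i-5p: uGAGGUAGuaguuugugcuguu
let-7f-5p: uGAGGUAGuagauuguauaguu
let-7g-5p: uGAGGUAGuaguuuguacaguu
miR-484: uCAGGCUCaguccccucccgau
miR-197-3p: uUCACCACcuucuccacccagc
miR-23a-3p: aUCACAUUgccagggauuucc
miR-20a-5p: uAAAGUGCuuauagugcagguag
miR-7974: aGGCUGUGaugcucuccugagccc

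On GRCh38 miR-342-5p lies at chr14:100109673-100109693 on the plus strand, in a hairpin within an intron of EVL. The 5p arm of miR-92b is at chr1:155195196-155195217 on the plus strand, where an exon of the long non-coding RNA THBS3-AS1 is annotated. miR-125b-1-3p is at chr11:122099769-122099790 on the minus strand in an intron of MIR100HG. The hairpins of miR-340, miR-15b and miR-106b lie in introns of RNF130, SMC4 and MCM7. miR-484 is at chr16:15643301-15643322 on the plus strand, in an exon of an NDE1 transcript, and miR-197-3p is at chr1:109598940-109598961 on the plus strand, in an exon of a GNAI3 transcript. miR-23a-3p is at chr19:13836595-13836615 on the minus strand in an exon of MIR23AHG. Host genes were taken by hairpin name from GENCODE on GRCh37, and coordinates from RefSeq.

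To ask how the RNA retained without a 3'UTR differed from the lysate, edgeR's quasi-likelihood test was applied to all 408 miRNAs. At a Benjamini-Hochberg adjusted p under 0.05, 285 miRNAs (69.9%) differed, 134 higher (32.8%) and 151 lower (37%) in the MS2 control. The difference was at least 2-fold for 114 of the higher and 125 of the lower miRNAs. The filter admitted 30 miRNAs through the MS2 control libraries and not the input libraries, and all 30 of these were called higher. Of the 65 admitted through the input and not the MS2 control libraries, 37 were called lower. Such miRNAs had passed through the group where they were high. Of the 284 that passed in each group taken alone, 91 were higher and 110 were lower. Scaling by library totals called 199 miRNAs higher and 104 lower, which raised the share of rises among the calls from 47.0% to 65.7%.

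**Figure D1:**
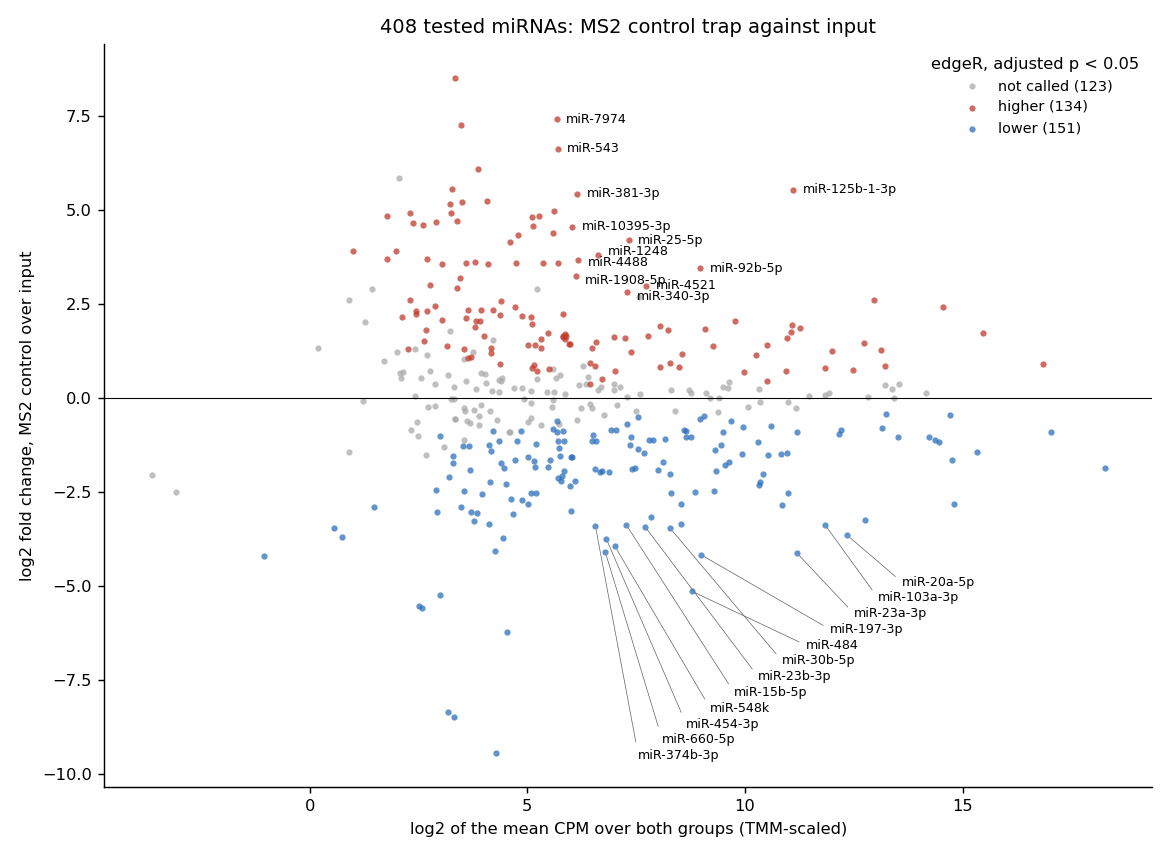
Log2 fold change of the MS2 control over the input (vertical axis) against the log2 mean CPM of both groups (horizontal axis) for 408 miRNAs, coloured by the edgeR call, with the 12 largest named rises and falls labelled. miR-125b-1-3p lies at 5.54, and of the labelled falls miR-484, miR-197-3p, miR-23a-3p and miR-660-5p lie below -4.

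The most abundant miRNAs changed rank between lysate and trap. miR-21-5p, often raised in tumours, led the input with 459406, 500447 and 518559 CPM in replicates 1, 2 and 3 and had 95651, 154634 and 156597 CPM in the MS2 control. It fell by 1.86 (log2, SE 0.17, with an adjusted p of 6.84e-06), which exceeded the spread in either group, and the ranges did not overlap. miR-10a-5p, encoded in a HOX cluster, fell by 2.82 (SE 0.11, adjusted p of 2.85e-08), from 50132 CPM ± 1919 (SD, n = 3) to 7105 CPM ± 269. miR-92a-3p and the paired miR-221-3p and miR-222-3p, which repress the cell cycle inhibitor p27, fell by 1.43, 1.67 and 1.13. miR-100-5p, miR-30a-5p and miR-7-5p fell by 0.90, 1.17 and 1.05, with adjusted p values of 1.16e-05, 1.32e-05 and 0.00026. The size depended on the processing. Over 15 alternatives their log2 fold changes ranged from -1.17 to -0.27, from -1.43 to -0.55 and from -1.36 to -0.43.

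In contrast, miR-423-3p entered the 10 most abundant miRNAs of the MS2 control. It had 7894, 7167 and 7648 CPM in the input and 59750, 38184 and 23594 CPM in MS2 control replicates 1, 2 and 3, and rose by 2.42 ± 0.29 (log2, SE, with an adjusted p of 3.6e-05). The MS2 control libraries ranged widely for this miRNA, yet the lowest lay above every input library. miR-26a-5p had a small fall of 0.45 (SE 0.12, adjusted p of 0.00589), which was a difference of 0.18 in the other direction, not past the threshold, with library totals.

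Shares of the library counts need no scaling factor. miR-21-5p made up 34.5%, 39.1% and 38.5% of the input counts and 11.9%, 17.4% and 17.9% of the MS2 control counts. The 10 most abundant miRNAs of each library made up 77.1% ± 1.07 (SD, n = 3) of the input and 68.3% ± 0.859 of the MS2 control counts. For both shares the groups did not overlap, and the exact permutation test, two-sided, gave p = 0.1, the smallest that 3 against 3 libraries allow.

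The let-7 family, tumour suppressors that repress RAS and HMGA2, was retained by the trap. Together its guide strands made up 13.3%, 9.50% and 9.40% of the input counts in replicates 1, 2 and 3 and 31.2%, 32.0% and 32.9% of the MS2 control counts (exact permutation test, two-sided, p = 0.1, the smallest possible). Of 9 tested guides, 7 rose (77.8%), 1 fell (11.1%) and 1 was not called, against 32.8% higher and 37% lower over all tested miRNAs. Their median log2 fold change was 1.72, against 0.02 over all tested miRNAs. Library totals gave 8 that rose, 0 that fell and a median of 2.36. On the TMM scale their summed level went from 141907 CPM ± 30848 (SD, n = 3) to 274051 CPM ± 20544, a smaller ratio than that of the shares. let-7b-5p rose most, from 2557, 1916 and 2196 CPM to 14790, 14981 and 11040 CPM, a log2 rise of 2.61 ± 0.19 (SE) at an adjusted p of 1.41e-06. let-7a-5p rose from 21108 CPM ± 5927 (SD, n = 3) to 69586 CPM ± 6055. let-7i-5p, the most abundant miRNA of the MS2 control, rose by less, with 81780 CPM ± 16048 and 151746 CPM ± 26500 and a log2 fold change of 0.89 ± 0.17 (adjusted p of 0.000822).

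Despite the common seed, members of the family differed in the size of their change. let-7g-5p had 20097, 13505 and 13484 CPM in the input and 6283, 8120 and 8637 CPM in the MS2 control, a fall of 1.03 (SE 0.20, adjusted p of 0.000824). The ranges did not overlap on the TMM scale, but with library totals the log2 fold change was -0.41 and did not pass (adjusted p of 0.0633), against 3.25 for let-7b-5p. let-7f-5p had 17392 CPM ± 4054 and 19182 CPM ± 1081, with a log2 fold change of 0.14 ± 0.19 that did not pass the threshold (adjusted p of 0.528), and with library totals it rose by 0.77 (adjusted p of 0.00426). let-7c-5p, let-7d-5p and let-7e-5p rose by 1.93, 1.74 and 1.86, and miR-98-5p, which carries the same seed, rose by 1.14. Reads of members that differ at few bases could be assigned to one another, which counts cannot resolve.

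The let-7 passenger strands were rarer. Together they made up 0.0625% ± 0.00298 (SD, n = 3) of the input and 0.243% ± 0.0168 of the MS2 control counts. This was a ratio of 3.89, against 2.98 for the guides. Their summed TMM-scaled level went from 816 CPM ± 57.6 to 2069 CPM ± 138. Of 9 tested, 4 rose (44.4%), 2 fell (22.2%) and 3 were not called, against 32.8% and 37% over all tested miRNAs. On 9 members, these counts of calls set them little apart. let-7d-3p rose by 2.05 (SE 0.16, adjusted p of 1.59e-06), from 339 CPM ± 33.7 (SD, n = 3) to 1400 CPM ± 186. let-7a-3p rose from 233 CPM ± 27.1 to 520 CPM ± 98.3, and let-7c-3p from 1.78 CPM ± 1.00 to 22.3 CPM ± 4.93. let-7b-3p and let-7f-1-3p fell by 2.21 and 2.07, although the 5p arm of let-7b rose.

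The guides of the miR-17-92 cluster and its paralogues, which promote proliferation, were mostly lower in the trap. Together they made up 5.92% ± 0.490 (SD, n = 3) of the input counts and 3.29% ± 0.376 of the MS2 control counts. One of them, miR-92a-3p, stayed among the 10 most abundant miRNAs of the MS2 control. Of 12 tested guides, 9 fell (75%, against 37% over all tested miRNAs) and 0 rose, with a median of -1.95. Library totals left 8 that fell and 1 that rose. Within them, the 6 miRNAs of the miR-17 seed all fell, with a median of -2.18. miR-20a-5p had 7910, 10416 and 10689 CPM in the input and 662, 901 and 732 CPM in the MS2 control, a fall of 3.66 (SE 0.19, adjusted p of 1.05e-07). miR-17-5p and miR-93-5p fell by 2.04 (SE 0.16) and 2.31 (SE 0.16). miR-20b-5p fell by 2.91 on few counts, and by 3.56 without MS2 control replicate 3. miR-18a-5p had a small fall of 0.61, which library totals turned to 0.02, not past the threshold.

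Seed groups with at least 3 tested members of known sequence numbered 15. Over all tested miRNAs 37% fell and 32.8% rose, and groups this small give only coarse shares. Among them the miR-15/16 seed, known for repression of BCL2, had 4 of 6 members that fell and a median of -2.03. miR-16-5p fell from 1064 CPM ± 126 (SD, n = 3) to 190 CPM ± 39.7, and miR-15a-5p fell by 2.10, or by 2.98 without MS2 control replicate 3. All 3 tested members of the miR-181 seed fell, by 1.52, 2.23 and 1.68 for miR-181a-5p, miR-181b-5p and miR-181d-5p. All 3 of the miR-378 seed fell, of which miR-378i fell by 2.53, or by 1.25 without input replicate 1. With library totals miR-378i still fell, while miR-378a-3p and miR-378c were at -0.11 and -0.51 and did not pass (adjusted p of 0.498 and 0.072). In the miR-130 seed miR-454-3p fell by 3.76 (SE 0.24, adjusted p of 6.6e-07), while the other 3 tested members were not called. Library totals called 2 of those 3 higher.

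Other seed groups rose. All 3 tested members of the miR-320 seed with a sequence rose, as did the 4 and 3 members of 2 groups from the miR-3689 hairpins, with medians of 1.49, 1.605 and 3.18. The last group was near the floor in the input, with a summed level of 3.92 CPM ± 0.778 against 42.6 CPM ± 7.43 in the MS2 control. Its members probably passed the filter through the MS2 control, where they were high, so their calls carry little weight. Among the miR-3689 entries the mature sequences of several names are identical, so their counts are not independent. miR-3689b-3p rose by 4.68, or by 6.02 without input replicate 3. The seed of miR-99 and miR-100 was split. miR-99a-5p rose from 6810 CPM ± 1144 (SD, n = 3) to 12207 CPM ± 1372 and miR-99b-5p from 2428 CPM ± 589 to 5802 CPM ± 428, whereas miR-100-5p fell from 174397 CPM ± 8083 to 93250 CPM ± 3567. Across the alternatives the log2 fold change of miR-100-5p lay between -1.17 and -0.27.

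**Figure D2:**
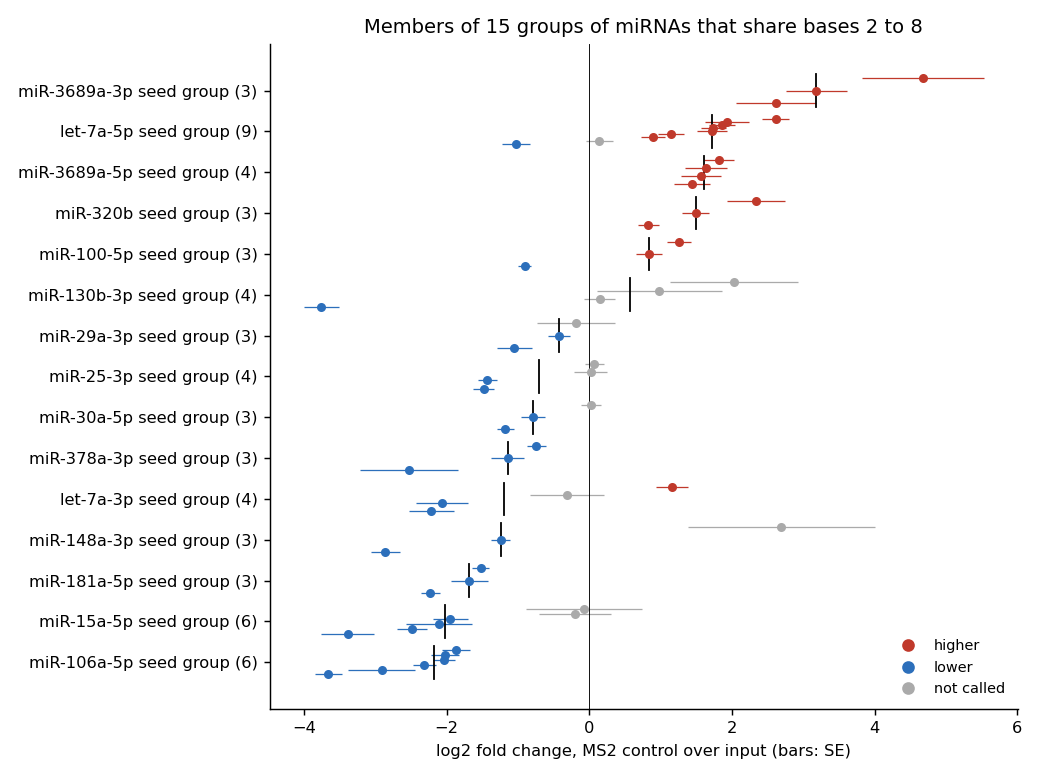
Log2 fold change of the MS2 control over the input (horizontal axis, bars are SE) for each member of 15 groups that share bases 2 to 8, ordered by their median (black line) and coloured by the edgeR call. The let-7 guides lie to the right except let-7g-5p at -1.03, and the 6 members of the miR-17 seed (lowest row, named by miR-106a-5p) lie between -3.66 and -1.87.

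The size of the change also differed between miRNAs of shared clusters. The miR-23/27/24 clusters encode miRNAs of 3 seeds that are processed together. miR-24-3p has 2 genomic copies, whose counts were summed, so its value cannot be assigned to one transcript. miR-23a-3p had 4011, 4417 and 4875 CPM in the input and 281, 243 and 232 CPM in the MS2 control, a fall of 4.13 (SE 0.15, adjusted p of 2.85e-08). miR-23b-3p fell by 3.42 (SE 0.42) and miR-27b-3p by 1.45 (SE 0.16). Their neighbours miR-27a-3p and miR-24-3p had log2 fold changes of 0.38 ± 0.16 (adjusted p of 0.0507) and 0.13 ± 0.12 (adjusted p of 0.338). The threshold was passed by miR-27a-3p in 7 of 15 alternatives, and with library totals both rose, by 1.01 and 0.77 (adjusted p of 0.000204 and 0.00027). As a share of library counts the 5 miRNAs together made up 1.65% ± 0.133 (SD, n = 3) of the input and 2.21% ± 0.117 of the MS2 control, whereas their summed TMM-scaled level was 21827 CPM ± 2137 and 18885 CPM ± 978, so the direction of the sum depended on the scaling.

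Among miRNAs with a mean of at least 100 CPM in the input, miR-484 had the largest fall. It is made from a capped hairpin without cutting by Drosha, as is miR-320. miR-484 had 788, 825 and 935 CPM in the input and 33.0, 21.02 and 18.2 CPM in the MS2 control, a fall of 5.14 (SE 0.26, adjusted p of 1.05e-07). By contrast, the 4 tested miR-320 names on the same list rose, with miR-320a-3p at 4285 CPM ± 406 (SD, n = 3) and 7179 CPM ± 102. miR-197-3p fell from 961 CPM ± 343 to 53.6 CPM ± 14.6, and miR-103a-3p, which targets Dicer, from 6659 CPM ± 236 to 641 CPM ± 65.0. miR-548k, miR-30b-5p, miR-374b-3p and miR-15b-5p fell by 3.95, 3.47, 3.42 and 3.39. miR-660-5p fell by 4.10 (SE 0.56), or by 4.70 without MS2 control replicate 1.

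Several of the 12 largest named rises were arms that are rare in the lysate. miR-125b-1-3p, the passenger of a guide that represses p53, had 120, 74.8 and 85.2 CPM in the input and 3619, 4949 and 4427 CPM in the MS2 control. It rose by 5.54 ± 0.23 (log2, SE, with an adjusted p of 2.85e-08), which exceeded the spread within both groups by far. miR-25-5p rose by 4.19 (SE 0.45), from 16.6 CPM ± 3.55 (SD, n = 3) to 304 CPM ± 55.1. miR-92b-5p rose by 3.45 (SE 0.26), from 84.0 CPM ± 13.1 to 920 CPM ± 77.5. miR-340-3p rose by 2.82 (SE 0.21), from 39.0 CPM ± 5.89 to 276 CPM ± 30.0.

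The other large rises were mostly miRNAs with high numbers or from the 14q32 cluster. miR-7974 had 2 counts in each input library and 129, 91.2 and 84.7 CPM in the MS2 control, which made it at least 100.4-fold higher when set against a floor of 3 counts in the input library where a count weighed most (1.01 CPM). miR-10395-3p, miR-4488, miR-1908-5p and miR-4521 rose by 4.55, 3.66, 3.25 and 2.98. miR-1248, whose entry overlaps a small nucleolar RNA, rose from 13.2 CPM ± 3.70 (SD, n = 3) to 183 CPM ± 52.8. miR-543 had 38.8, 105 and 164 CPM and miR-381-3p 24.6, 98.7 and 291 CPM in MS2 control replicates 1, 2 and 3, a wide spread. They rose by 6.63 ± 0.99 (log2, SE, with an adjusted p of 0.000173) and 5.43 ± 1.09 (adjusted p of 0.00118). Without input replicate 1 they were 10.67 and 7.70, of which the first depends on the prior count since miR-543 then had 0 counts in the input, without input replicate 3 they were 5.88 and 4.73, and without MS2 control replicate 3 they were 5.95 and 4.09.

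A few miRNAs were seen almost entirely on one side. With at least 10 counts in every MS2 control library and at most 3 in every input library, 8 names were found, among them miR-27b-5p and miR-365b-5p at bounds of at least 21.7-fold and 19.9-fold. The reverse held for 27 names, with bounds from 1.42-fold to 20.2-fold that the lower depth of the MS2 control limits. The highest of them was miR-1226-3p, made from a mirtron, an intron that is spliced into a hairpin. It had 180, 115 and 229 counts in the input and 1 count in each MS2 control library. Its 5p arm, miR-1226-5p, moved the other way by 2.05 ± 0.61 (log2, SE, with an adjusted p of 0.0111) and with overlapping groups, which failed the threshold when MS2 control replicate 1 or input replicate 2 or 3 was left out (adjusted p between 0.0604 and 0.0667).

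To compare arms without any scaling factor, the ratio of the arms of each hairpin was tested with edgeR (diffSpliceDGE, hairpins as genes and arms as exons). Both arms could be tested for 114 hairpins, and the balance differed in 87 (76.3%). In 41 (36%) the share of the 5p arm was higher in the MS2 control and in 46 (40.4%) that of the 3p arm. In simulated data 7.98% of the calls of this test were false. As single miRNAs, the arms of 26 hairpins were called in opposite directions, or of 28 with library totals.

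**Figure D3:**
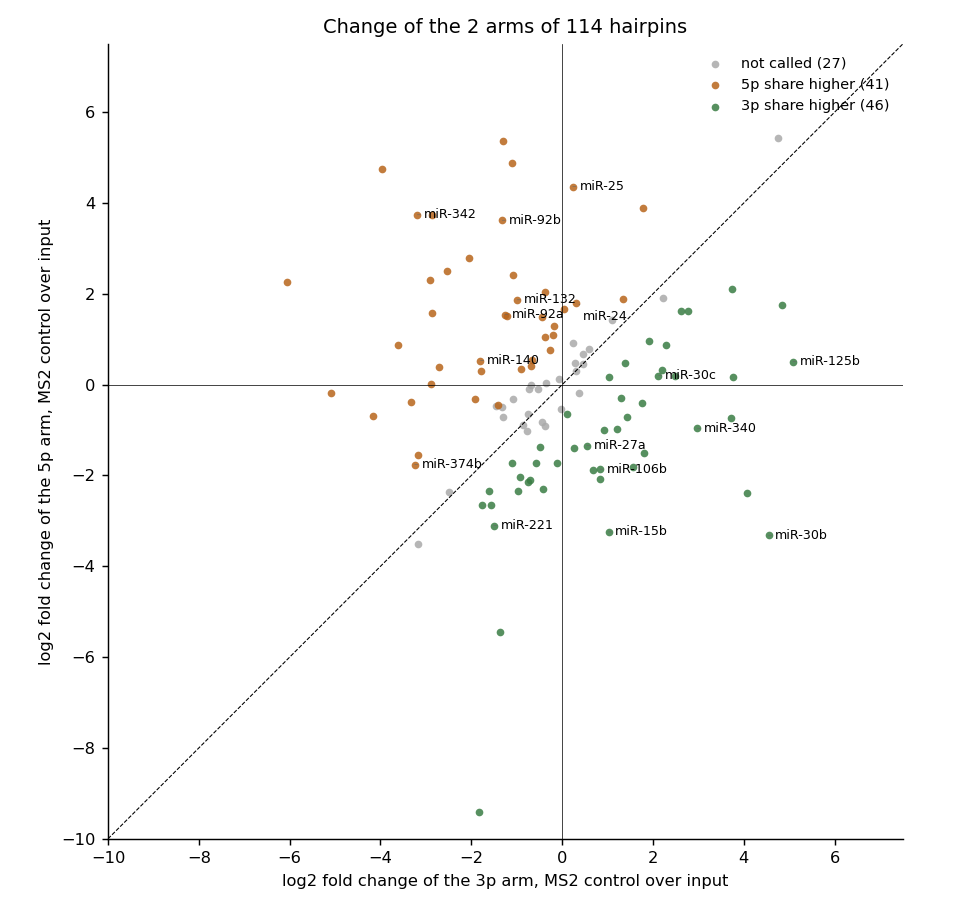
Log2 fold change of the 5p arm (vertical axis) against that of the 3p arm (horizontal axis), MS2 control over input, for 114 hairpins, with 16 named hairpins labelled. Points on the dashed line have an unchanged balance. miR-342, miR-92b and miR-132 lie in the field with 5p above 0 and 3p below 0, and miR-30b, miR-340, miR-15b and miR-106b in the opposite one.

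Balance was inverted in several hairpins. For miR-342 the 5p arm made up 1.55%, 1.19% and 0.95% of the hairpin's counts in the input and 52.6%, 62.3% and 62.3% in the MS2 control. The log2 ratio of 5p to 3p changed by 6.93 (adjusted p of 8.06e-16), and the arm that was the passenger in the lysate was the majority in all 3 MS2 control libraries. miR-92b moved in the same direction, from 3.03% ± 0.357 (SD, n = 3) to 49.1% ± 5.66. miR-132, a neuronal miRNA induced by CREB, went from 17.0% ± 3.83 to 59.7% ± 3.32. For miR-140, in an intron of WWP2, the share of 5p rose from 6.90% ± 0.106 to 27.2% ± 2.92. miR-25, miR-92a and miR-24 kept 3p as the majority but gained 5p, to 7.57% ± 1.51, 3.90% ± 0.971 and 7.70% ± 1.91.

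The opposite shift was as strong. For miR-30b the 3p arm had a share of 0.725% ± 0.302 (SD, n = 3) in the input and 64.9% ± 7.59 in the MS2 control, a change of the log2 ratio of -7.86 (adjusted p of 8.06e-16). miR-340 went from 10.8% ± 2.14 to 65.3% ± 5.51 of the 3p arm, and miR-15b from 15.4% ± 6.01 to 79.0% ± 10.3. The 3p arms of miR-125b rose from 1.67% ± 0.157 to 29.7% ± 7.77 (adjusted p of 5.59e-17). In miR-106b, miR-27a and miR-221 the 3p arm already dominated the input and increased further, to 91.0% ± 0.437, 96.3% ± 0.595 and 90.8% ± 2.61. miR-125b, miR-92a, miR-24 and miR-30c are encoded by more than 1 hairpin, and their arms were summed over the copies.

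Across the 114 hairpins, the majority arm was one in every input library and the other in every MS2 control library for 15, including miR-342, miR-132, miR-30b, miR-15b and miR-340. Where the minor arm was defined by the input, its share was higher in the MS2 control in 56 called hairpins and lower in 31, with a median log2 change of 0.71. Since the input libraries both defined the arm and entered the ratio, the definition was repeated with the PD-L1 3'UTR libraries, which gave 53 and 34 and a median of 0.57. Minor arms together made up 2.29%, 2.84% and 3.07% of the counts of these hairpins in the input and 3.85%, 3.99% and 3.67% in the MS2 control (exact permutation test, two-sided, p = 0.1, the smallest possible). The minor arms were thus higher as a group but remained a small part of the retained RNA.

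**Figure D4:**
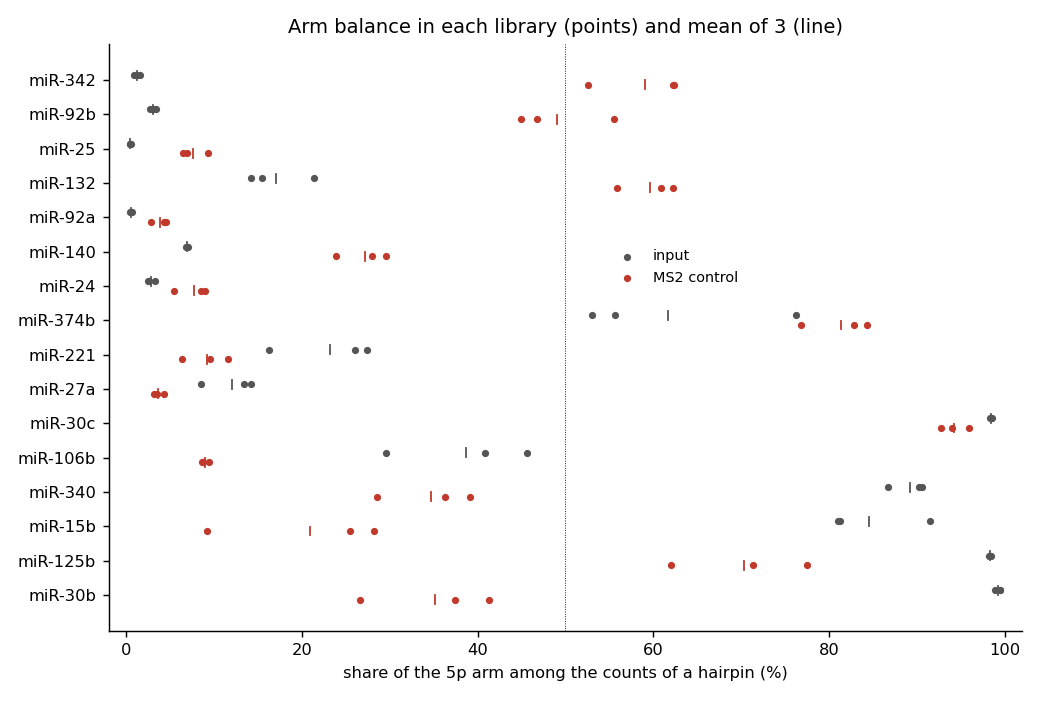
Share of the 5p arm among the counts of a hairpin (horizontal axis, %) in each of 3 input and 3 MS2 control libraries for the 16 named hairpins, with the mean as a line. The groups overlap for none of the 16, and the gap is narrowest for miR-374b.

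By name, neither arm class was retained as a whole. Over all 408 tested miRNAs 32.8% rose and 37% fell. Of 178 tested 5p miRNAs 62 rose (34.8%) and 65 fell (36.5%), with a median of 0.01. Of 174 tested 3p miRNAs 48 rose (27.6%) and 69 fell (39.7%), with a median of -0.22. Of 56 names without an arm, 24 rose (42.9%) and 17 fell (30.4%), with a median of 0.57. Library totals turned these counts to 93 and 47 for 5p, 76 and 47 for 3p and 30 and 10 for names without an arm. miRNA numbers, which follow the order of discovery, divided the miRNAs further. Of 319 with a number under 1000, 87 rose and 134 fell, and of 61 with a number of 3000 or higher, 35 rose and 11 fell. With library totals the counts were 142 and 92, and 39 and 9, so that the first class changed its balance and the second did not. Among names that passed the filter in each group alone, these counts were 60 and 106 of 236, and 21 and 3 of 29. The 61 names with high numbers had a summed level of 1906 CPM ± 147 (SD, n = 3) in the input and 3818 CPM ± 503 in the MS2 control, a small part of either pool.

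Lists of unusual hairpins gave no common direction. They are too short for their calls to be set apart from the shares over all tested miRNAs (32.8% higher, 37% lower). Of 9 tested names that overlap other structured RNA, such as small nucleolar or ribosomal RNA, 5 rose and 4 fell, and the arms of miR-664a were on opposite sides, with miR-664a-5p at 2.32 ± 0.61 (SE) and miR-664a-3p at -2.73 ± 0.60. miR-1260b fell by 3.04, or fell by 8.01 without MS2 control replicate 1, and failed the threshold without MS2 control or input replicate 2 (adjusted p of 0.0553 and 0.0516) and with library totals (0.0542), and the rise of miR-1291 (1.31) failed it without replicate 1 or 3 of either group (adjusted p up to 0.101) and without the filter (0.165). Together the list made up 0.0188% ± 0.00437 (SD, n = 3) of the input and 0.0426% ± 0.00786 of the MS2 control counts. Of 3 tested mirtron arms 1 rose and 1 fell. Of 5 tested miR-548 names, a family derived from a transposable element, 2 rose and 2 fell, although the rise of miR-548ao-3p (1.30) failed the threshold on leaving out any of 4 libraries and under 4 other alternatives (adjusted p up to 0.322), and they made up 0.0296% ± 0.000614 and 0.0337% ± 0.0024 of the counts.

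Composition was described for the 371 tested miRNAs with a sequence. Across these miRNAs, which share libraries and in part sequence, the G+C content had a Pearson coefficient with the log2 fold change of 0.08 and a Spearman coefficient of 0.07. This near absence concealed opposite relations of its parts. The share of G had coefficients of 0.30 and 0.30, and the share of C had -0.21 and -0.16. In the upmost of 4 groups ordered by their share of G (34.8% to 64.7%) 51 of 88 rose and 17 fell, with a median of 1.32. This group held 6 of the 9 let-7 guides, all but let-7f-5p, let-7g-5p and miR-98-5p. In the next lower groups 27 of 74, 24 of 114 and 17 of 95 rose, against 119 of all 371. With 1 miRNA per seed the coefficient for G was 0.28, and in single MS2 control libraries it was between 0.28 and 0.33. The share of G had a coefficient of -0.03 with the log2 mean level. The log2 fold change itself had Pearson and Spearman coefficients of -0.13 and -0.18 with that level over all 408 tested miRNAs. In the lowest of 4 groups by mean level 37 of 102 rose and 22 fell, and in the highest 26 of 102 rose and 51 fell.

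The first base, which lies in a pocket of Argonaute that prefers U or A, also differed between groups. Of 26 miRNAs that begin with G, 15 rose and 4 fell, against 38 and 65 of 160 that begin with U and 33 and 44 of 100 that begin with A. Of 85 that begin with C, 33 rose and 25 fell. Library totals gave 21 and 1 for G, 71 and 43 for U, 43 and 32 for A and 44 and 20 for C. Among those that passed the filter in each group alone, 7 of 15 with a first G rose and 2 fell, too few to describe closely. By length, 28.3% of 92 miRNAs of 23 bases or more rose and 46.7% fell, with a median of -0.45. For 71 with 21 bases or fewer the shares were 32.4% and 29.6%, with a median of 0.27. Over all 371 they were 32.1% and 37.2%. Length had Pearson and Spearman coefficients of -0.06 and -0.11 with the log2 fold change.

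**Figure D5:**
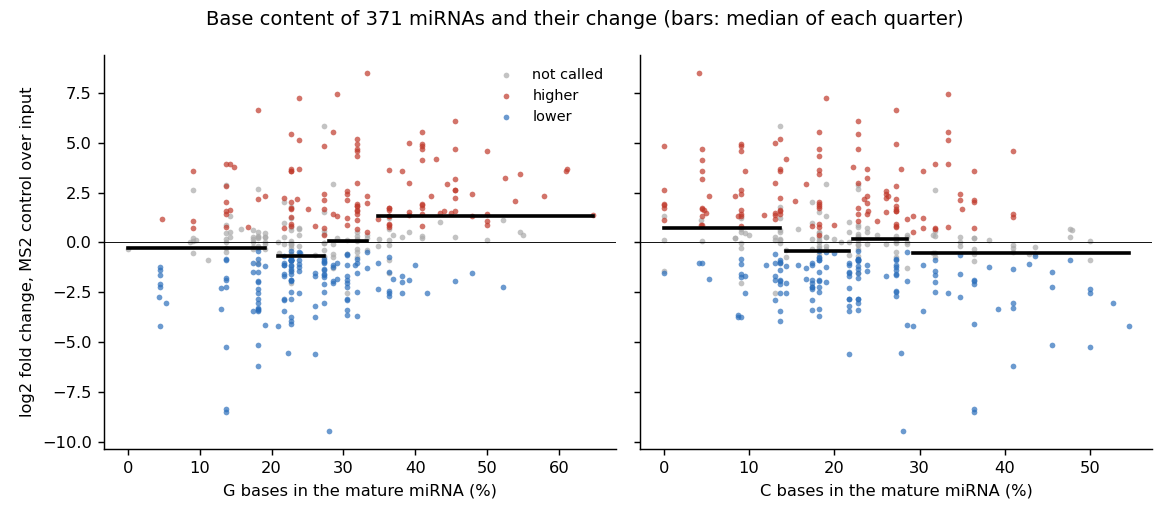
Log2 fold change of the MS2 control over the input (vertical axis) against the share of G (left) and of C (right) in the mature miRNA for 371 miRNAs, coloured by the edgeR call, with the median of each of 4 groups by that share as a black bar. The bar of the group richest in G lies at 1.32, above the other 3.

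miRNAs that mark other tissues were read as a check of the libraries. The summed level of 8 blood and serum markers was 153 to 204 CPM in the input, here with library totals, and 410 to 513 in the MS2 control. For 5 epithelial markers it was 30.8 to 41.7 and 63.0 to 97.4, and for 3 muscle markers 1.185 to 3.16 and 50.5 to 163. miR-429 and miR-133a-3p were at 0 in all 6 libraries, and in each group 1 of the blood and serum markers was at 0. Of 4 tested blood and serum markers, 2 were called higher and 2 were not called. Of 2 tested epithelial markers 0 were called, and the 1 tested muscle marker was higher. Over all tested miRNAs 32.8% were higher and 37% lower. Library totals called 4 blood and serum and 2 epithelial markers higher. On the separate scale of the arms, the 5p and 3p arms of miR-142 went from 131 and 96.9 CPM to 179 and 132 CPM. miR-451a, a red cell miRNA, had 2.10, 2.36 and 2.48 CPM in the input and 84.0, 32.1 and 83.2 CPM in the MS2 control (adjusted p of 0.00215). The muscle miRNA miR-1-3p rose by 4.84 (SE 1.35, adjusted p of 0.00811), or by 4.15 without MS2 control replicate 1. Its input level was 2.59 CPM ± 1.07 (SD, n = 3), so miR-1-3p and miR-451a probably passed the filter through the MS2 control. All 30 miRNAs admitted through the MS2 control and not the input were called higher, so such calls carry little weight. The liver miRNA miR-122-5p rose by 4.15 (SE 1.42, adjusted p of 0.0228), which failed the threshold without MS2 control replicate 3 or without any 1 of the input libraries (adjusted p between 0.0508 and 0.0797), or with robust empirical Bayes. Whether RNA from outside the cells contributed to these or other rises was not tested.

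With the PD-L1 3'UTR as bait, 31.4% of the tested miRNAs were higher and 28.7% lower than in the MS2 control by the same test. Both comparisons use the MS2 control libraries, so their values are given side by side only. miR-125b-1-3p had 224 CPM with the 3'UTR, a difference from the MS2 control of -4.27 ± 0.21 (SE, adjusted p of 4.62e-08). miR-92b-5p and miR-4488 had 37.3 and 3.26 CPM, with differences of -4.60 ± 0.28 and -5.38 ± 0.38. In contrast, miR-1248 and miR-4521 had 545 and 791 CPM, higher by 1.57 ± 0.25 and 1.06 ± 0.18. Of the large falls, miR-23a-3p and miR-20a-5p had 6027 and 54492 CPM with the 3'UTR, and miR-484 and miR-197-3p had 15.2 and 40.2 CPM, with adjusted p values against the MS2 control of 0.0531 and 0.265. The difference for miR-484 passed the threshold without MS2 control replicate 2 or 3 (adjusted p of 0.0444 and 0.0169). The level of miR-25-5p was 27.5 CPM with a difference of -3.53, or -4.29 without PD-L1 3'UTR replicate 2. let-7i-5p and let-7b-5p had 7668 and 2355 CPM.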

How the data were processed

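Small RNA was measured in 9 libraries, 3 each of input, MS2 control and PD-L1 3'UTR, grouped by sample title. The table deposited by the authors holds raw read counts for each locus of a mature miRNA. Per the submitters' notes and the study's methods, the authors trimmed with cutadapt 1.18, aligned with Bowtie2 2.2.6 to hg38 and counted with featureCounts 1.6.3 on miRBase miRNAs. How reads with several matches were assigned is not given in the sources used here.

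The 2883 locus rows were summed to 2652 names. Names kept by filterByExpr (by group) were fitted with edgeR 4.0.16 in R 4.3.3 (TMM, glmQLFit with 3 group means on 9 libraries, glmQLFTest, two-sided, Benjamini-Hochberg, threshold 0.05). The SE is the size of a log2 fold change divided by the square root of F. TMM factors were 0.742 to 0.782 in the input and 1.129 to 1.247 in the MS2 control, and the common biological coefficient of variation was 31.1%. Arms were scaled and fitted separately with diffSpliceDGE. Shares were compared by the exact permutation test (scipy 1.17.1). Floors of 3 counts cover counting error only. On simulated data 92.5% of 200 changed miRNAs (log2 size of 2) were recovered and 2.11% of calls were false, and for arms 96.5% and 7.98%. Simulated rises and falls were equally likely, so the rates for miRNAs do not cover error from the choice of scaling.

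Named are the 12 largest rises and falls that were called, did not overlap and reached a mean of 100 CPM in the higher group, the 10 most abundant miRNAs of each group, the 8 hairpins with the largest change toward each arm (both arms at 100 CPM in a group), members of seed groups and lists as examples, and names with at least 10 counts in each library of one group and at most 3 in the other. The members and lists were chosen with earlier results of these data known, and the base shares other than G+C and the exchanged majority arms were added after values were seen. Pairs of replicates differed beyond sampling noise (chi-square per degree of freedom from 12.5 to 243.8). Alternatives were other scalings, filters, fits and tests (limma 3.58.1, DESeq2 1.42.0), separate loci, a replicate block and leaving out each library.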

Additional observations from a re-analysis of the deposited data

How the results depend on the processing

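The counts of miRNAs and hairpins called in each direction stayed within 1.5 times the reported values under every alternative run. Against the reported 134 higher and 151 lower miRNAs, an unfiltered table gave 153 and 208, a mean of at least 10 CPM 118 and 130, the 6 libraries alone 146 and 166, separate loci 150 and 171, and DESeq2 143 and 147. Leaving out 1 library gave 117 to 131 higher and 143 to 166 lower. Library totals, which gave 199 and 104, moved the balance most. They also called let-7f-5p and miR-24-3p higher (0.77 and 0.77) and ended the fall of let-7g-5p (-0.41). They turned miR-26a-5p to 0.18, miR-18a-5p to 0.0242 and miR-29a-3p to 0.20. Without the filter let-7f-5p and miR-24-3p, neither of which had passed the reported test, were at -0.13 and -0.13, and on leaving out 1 library they ranged from -0.0772 to 0.237 and from -0.0188 to 0.179. The difference in the mirtron share (-0.000775 percentage points) then ranged from -0.00205 to 0.000837. The coefficient for G+C ranged from 0.0430 to 0.109 and that for G from 0.267 to 0.317. The cause of these changes was not tested. Depth limited the MS2 control more than the input, since 3 counts stood for 1.34 to 2.59 CPM against 0.501 to 0.791.

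Deviations from the group means of samples with the same replicate number had coefficients of -0.18, -0.13 and -0.11 between input and MS2 control. Unlike numbers gave -0.0822 to 0.192. Between MS2 control and PD-L1 3'UTR, like numbers gave 0.13, 0.07 and 0.10 and unlike numbers -0.117 to 0.0259. Between input and PD-L1 3'UTR, like numbers gave -0.0041, -0.0789 and 0.0254. Such small coefficients from 3 libraries a group cannot tell whether the numbers pair the samples. With the replicate number as a block, 129 miRNAs were higher and 147 lower, and 86 hairpins were called.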
